A study of Mus musculus with 11 samples.

Results

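The histone genes described here are the 63 genes whose symbols begin with Hist1h, Hist2h, Hist3h or Hist4h, the older mouse names for the clustered, replication-dependent histones, out of 32531 genes in the count tables. They were chosen by a rule on the symbol that uses no measured value, with earlier results of these data known. The mice were adults of the Glt25d2-EGFP/Rpl10a DU9 line, with the tissue labelled cerebral cortex. In this line the regulatory DNA of Glt25d2 (now Colgalt2) makes an EGFP-tagged ribosomal protein in pyramidal neurons of layer 5, and antibodies against EGFP pull down the ribosomes of those cells with the RNA they hold (translating ribosome affinity purification, TRAP). All mice carried the tag, and the 9 immunopurified (IP) libraries were 3 each of saline self-administration, cocaine self-administration (both intravenous, with short access) and yoked control, beside 1 input library (RNA before the pull-down) from the saline group and 1 unbound library (RNA left after it) from the cocaine group. The extraction text names the striatum instead, and the dissected tissue could not be settled. The sources used here do not give what the yoked mice received, their sex and exact age, or whether a replicate was 1 animal or a pool. Each p-value therefore covers only library-to-library spread, which may be technical.

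Replication-dependent histone genes make the bulk of the histone protein that packages new DNA. Their messenger RNA is made mainly in S phase, has no introns as a rule, and normally ends not in a poly(A) tail but just after a conserved stem-loop, which the stem-loop binding protein (SLBP) holds during processing, translation and decay. Neurons do not divide, and differentiated cells are known to make some polyadenylated transcripts from these genes by using a poly(A) site farther downstream. The sources used here do not say whether poly(A) RNA was selected. Linker histones (H1) bind DNA between nucleosomes, and the core histones H2A, H2B, H3 and H4 form the nucleosome itself.

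The 63 genes comprised 6 of H1, 16 of H2A, 18 of H2B, 10 of H3 and 13 of H4. All 63 symbols were found in GENCODE release M21 on GRCm38 (mm10), 62 as protein-coding genes and 1, Hist3h2bb-ps, as a processed pseudogene. Most lay in a single cluster: 51 genes on chromosome 13 between 21715763 and 23934851. A further 8 lay on chromosome 3 between 96219865 and 96270132, 3 on chromosome 11 between 58948920 and 58956830, and 1, Hist4h4, on chromosome 6 from 136801553 to 136804415. The symbol rule also takes in genes known from the testis, such as Hist1h1t and Hist1h2ba.

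The stem-loop is the feature that sets this gene family apart, and it is shown for 6 of the genes whose levels are described below. It was searched for on the sense strand of each GENCODE transcript, in the first 150 bases after the stop codon, as 16 bases that start with GG, end with CC, and have 6-base arms that are exact reverse complements around a 4-base loop, with U as the last base of the first arm. It was found in 41 of the 47 histone genes with at least 16 annotated bases there (87.2%), and in 17 of 18956 other protein-coding genes with the full window (0.0897%). The letters below come from the GENCODE release M21 transcripts and run 5′ to 3′ as RNA, with the 16 bases of the stem-loop in capitals and 5 bases on each side in lower case.
Hist1h4d: ccaaaGGCCCUUUUCAGGGCCacuac
Hist1h4c: caaaaGGCCCUUUUCAGGGCCaccca
Hist2h4: cuaacGGCCCUUUUUAGGGCCaacca
Hist1h1c: caaaaGGCUCUUUUCAGAGCCaccac
Hist1h1e: ccaaaGGCUCUUUUCAGAGCCaccca
Hist3h2ba: ccaaaGGCUCUUUUCAGAGCCaccuu

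The start of the stem followed the histone type. GGCUC opened the stem in all of the H1 (4), H2A (9), H2B (9) and H3 (7) genes in which a stem-loop was found, while the 12 such H4 genes had GGCCC (10 genes) or GGUCC (2 genes). The commonest whole sequence, GGCUCUUUUCAGAGCC, stood in 21 genes, and GGCCCUUUUCAGGGCC in 7. No match was found in the window of Hist1h1a, Hist1h2bc, Hist1h2bp, Hist1h2br, Hist2h2be and Hist2h3b, which says only that these letters are not in the annotated bases searched; those of Hist1h1a and Hist2h3b were 48 and 37. In Hist1h4d the stem-loop began 37 bases after the stop codon and the annotated transcript ran on for another 770 bases, and in Hist1h1e it began at base 41 with 1153 bases after it.

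Histone messages were scarce in all 11 libraries. Their counts summed to 1413 (unbound) to 5724 (cocaine IP replicate 1) per library, out of 20926712 to 53862653 counts in genes. Over the 11 libraries they came to 29627 counts, of which Hist1h4d held 32.7%, Hist1h1e 14.7%, Hist2h2be 14.2%, Hist1h2bc 8.93% and Hist3h2ba 4.48%. Only 11 genes reached a mean of 1 CPM (counts scaled to a common library size, with TMM factors over all 11 libraries), and the 11 genes with most counts held 90.4% of all histone counts. The other end of the list held few counts or none: 8 genes had no count in any library (Hist1h2aa, Hist1h2ah, Hist1h2an, Hist1h2ao, Hist1h2ba, Hist1h2br, Hist2h2aa2 and Hist3h2a), 24 had at most 9 counts in every library, and 31 had 10 or more in at least 1. A count of 0 allows up to 3 counts, which is 0.0557 CPM in the deepest library and 0.143 CPM in the shallowest. This limit holds for uniquely aligned reads and not for the gene's expression, since Hist2h2aa2, for instance, shares 100% of its 50-base stretches with other genes.

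Per kilobase of annotated transcript, the mean level over 11 libraries was highest for Hist1h4d, at 19.6 CPM per kilobase. Hist1h2bc followed with 5.73, Hist1h1e with 5.34, Hist3h2ba with 5.02, Hist2h2be with 4.07 and Hist2h2bb with 3.56 CPM per kilobase. The other genes above that mean lay lower on the same scale, at 2.5 for Hist1h1a, 1.92 for Hist1h4c, 1.66 for Hist1h1c, 1.18 for Hist2h4 and 0.556 for Hist1h2be. In GENCODE, Hist1h2be overlaps Hist1h1e on the same strand, and Hist2h2bb overlaps the lincRNA Gm42743 on the same strand and Gm20628 on the other. Reads over several genes were set aside in the count tables, so such overlaps can lower these counts.

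Near-identical copies limit what these counts can show, because reads that align to several places were left out of the gene counts. Each transcript was cut into all of its 50-base stretches, and the share of stretches also present in another annotated gene was recorded. Annotated genes that overlap the histone gene were not counted as other genes here. Among the 20 histone genes with under 25% of stretches shared, the median count over 11 libraries was 448.5 and 10 reached a mean of 1 CPM. Among the 17 with 25% to under 50%, the median was 58.0 and 1 reached that level. It was 30.0 for the 11 genes with 50% to under 75%, and 5.0 for the 15 genes with 75% or more, 5 of which had no count at all; none of these 26 genes reached a mean of 1 CPM. Across the 63 genes the share and the total count had a Spearman correlation of -0.58, a description of genes that share sequence and libraries. These counts were not scaled to transcript length, whose part in the correlation was not tested. For the most alike copies, low expression and reads lost to other copies cannot be told apart. Hist1h2aa and Hist3h2a were at 0 with under 25% of their stretches shared. In GENCODE, Hist3h2a is overlapped on the same strand by Trim17 and on the other by Gm44313, and Hist1h2aa is overlapped on the other strand by Gm44344. No source used here gives the read length, so 50 bases is an assumed one.

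**Figure D1:**
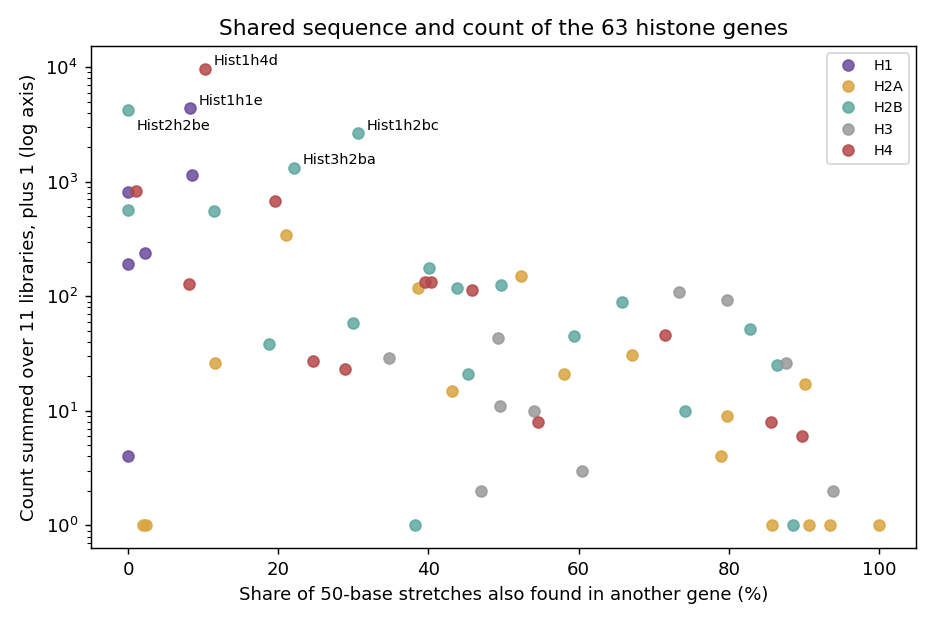
Each point is 1 of the 63 histone genes, coloured by histone type. The x axis gives the share (percent) of its 50-base stretches found in another gene that does not overlap it. The y axis gives its count summed over 11 libraries plus 1 (log scale). All genes with 75% or more shared sequence have low counts, and Hist1h4d has the highest count at 10.2% shared.

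A strong split between replicate numbers runs through the whole series and bears on each result below. The nuclear RNA Malat1 stood at 101.5 to 237.2 CPM in the 3 IP libraries numbered 1 and at 1544 to 5399 CPM in the 6 numbered 2 and 3, with 3963 CPM for input RNA and 11970 CPM for unbound RNA. The summed level of 10 layer 5 neuron markers was 1343 to 1537 CPM in number 1 and 690.7 to 902.7 CPM in the others, with 745.8 in the input. Each number shares 1 index barcode across the treatments. The IP libraries of each treatment were sequenced on a lane of their own, so treatment and lane cannot be told apart.

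Within each treatment, all histone genes together were highest in the library numbered 1. Their summed level was 83.9 CPM in saline IP replicate 1 against 54.0 and 65.1 CPM in replicates 2 and 3. In cocaine IP libraries it was 139 CPM in replicate 1 against 57.4 and 67.0 CPM, and in yoked IP libraries 69.3 CPM against 56.9 and 52.4 CPM. The input library (61.7 CPM) and the unbound library (67.3 CPM) lay near numbers 2 and 3. Number 1 was the highest library of its treatment in all 3 treatments. After TMM scaling the number 1 range did not overlap that of the other 6 IP libraries. The ratio of number 1 to the mean of numbers 2 and 3 was 1.41 in saline, 2.23 in cocaine and 1.27 in yoked (mean 1.64 ± 0.521, SD, n = 3 treatments). Counting error was far smaller than the distance of cocaine IP replicate 1 from the others. As a share of genic counts before TMM scaling, that library was at 134.3 CPM (exact 95% binomial interval 130.9 to 137.8). On that scale yoked IP replicate 1, at 68.6 CPM (66.0 to 71.3), lay below cocaine IP replicate 3, at 69.2 CPM (66.5 to 72.0). The ranges of number 1 and of the other 6 IP libraries thus overlapped before TMM scaling.

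H4 carried most of this split. H4 genes summed to 39.1, 77.9 and 29.9 CPM in saline, cocaine and yoked replicate 1, and to 16.4 to 21.5 CPM in the 6 libraries numbered 2 and 3. H1 genes summed to 19.4, 29.1 and 17.1 CPM in number 1 and to 10.5 to 18.7 CPM in the others, so their ranges overlapped. H2B genes barely differed, with 22.6, 27.8 and 19.8 CPM in number 1 and 20.7 to 26.4 CPM in the others. H2A (1.23 to 2.69 CPM in the IP libraries) and H3 (0.365 to 1.48 CPM) were low throughout.

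**Figure D2:**
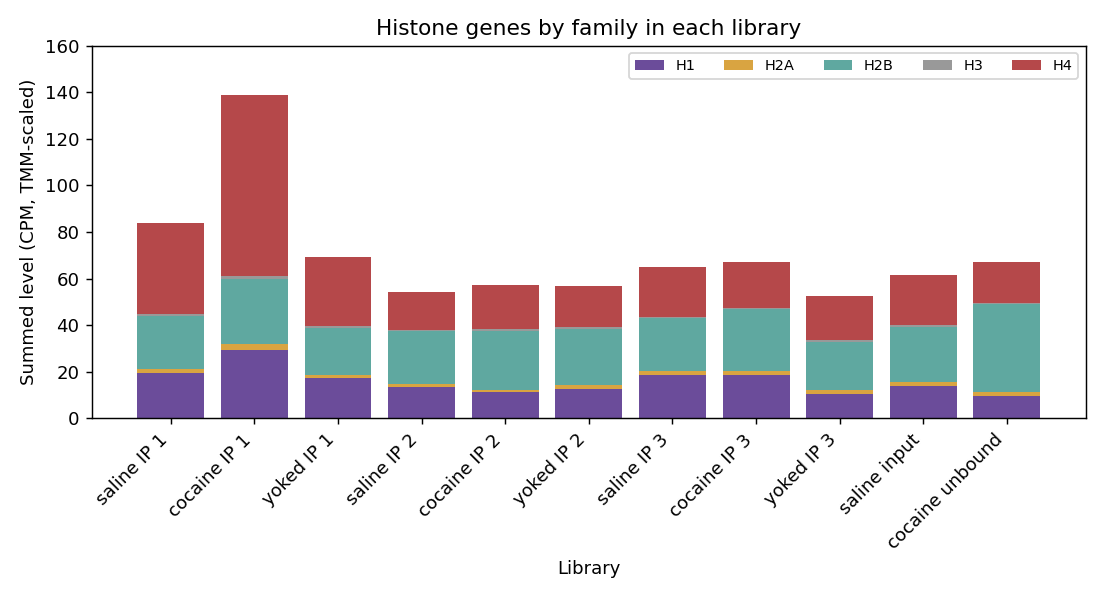
Stacked bars give the summed level of the histone genes in each of the 11 libraries (y axis, TMM-scaled CPM), split by histone type; IP libraries are ordered by replicate number. The H4 share is largest in the 3 libraries numbered 1, up to 77.9 CPM in cocaine IP replicate 1, while H2B is of similar height in all 9 IP libraries.

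Replicate number was compared in 1 fit of the 9 IP libraries with treatment as a term. It used edgeR's quasi-likelihood test with Benjamini-Hochberg adjustment over 16417 genes at 0.05. Every adjusted p below comes from this test, adjusted over all genes of its fit. The treatment comparisons used a fit of 3 group means without a term for replicate number. Of the 63 histone genes, 24 passed the filter on low counts, and 7 of those passed only through libraries numbered 1, so the 24 are not a fair sample for a direction. Higher in number 1 were 9 histone genes and lower was 1, while 27.6% of all genes tested were called higher and 27.7% lower (55.3% in either direction). The share of all genes that moved was thus large in both directions, and the histone counts say nothing particular to these genes. Fold changes are log2 of number 1 over the mean of numbers 2 and 3.

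Among H4 genes, which form the core of the nucleosome with H3, 5 of 6 tested were called higher, but 3 of the 6 (Hist1h4a, Hist1h4f and Hist4h4) passed the filter only through the libraries numbered 1, so the count is no support for a direction. Hist1h4d (ENSMUSG00000061482.7, chromosome 13 from 23581598 to 23582735, plus strand) stood at 31.7, 64.4 and 25 CPM in saline, cocaine and yoked replicate 1. In numbers 2 and 3 it stood at 13.1 and 18.1 CPM in saline, 15.7 and 16.2 in cocaine, and 14.5 and 15.6 in yoked. The lowest library numbered 1 was above the highest of the others, with means of 40.5 ± 21.4 (SD, n = 3) and 15.4 ± 1.60 CPM (n = 6). The edgeR log2 difference was 1.29 (SE 0.18, adjusted p = 2.74e-05), and it was 0.89 (adjusted p = 1.09e-05) without cocaine IP replicate 1. This 1 gene held 37.8% of histone counts in saline replicate 1 (exact 95% interval 36.3 to 39.2%), 46.4% in cocaine replicate 1 (45.1 to 47.7%) and 36.1% in yoked replicate 1 (34.3 to 38.0%), and 24.2% to 29.7% in the other IP libraries. Without it, the summed histone level was 52.2, 74.5 and 44.3 CPM in number 1 and 36.8 to 50.8 CPM in numbers 2 and 3, which overlap.

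Hist1h4c (chromosome 13, 23697635 to 23698454, minus strand) stood at 2.69, 4.81 and 1.53 CPM in saline, cocaine and yoked replicate 1 and at 0.758 to 1.12 CPM in the other 6. The groups did not overlap, and the log2 difference was 1.63 (SE 0.32, edgeR adjusted p = 0.000609), or 1.09 (adjusted p = 0.0166) without cocaine IP replicate 1. Hist2h4, an H4 gene of the chromosome 3 cluster, stood at 2.50, 4.71 and 1.69 CPM in number 1 and 1.27 to 1.69 CPM in the others. Its difference of 0.87 (SE 0.25, edgeR adjusted p = 0.00913) rested on the cocaine library: without it the value was 0.51 (adjusted p = 0.173). Hist1h4a and Hist1h4f had only up to 33 and 35 counts in a library. Hist1h4a lay between 0.501 and 0.777 CPM in number 1 and between 0.0791 and 0.265 CPM in the others, a log2 difference of 1.98 (SE 0.51, edgeR adjusted p = 0.00393). For Hist1h4f, with 0.422 to 0.850 against 0.130 to 0.302 CPM, it was 1.62 (SE 0.49, edgeR adjusted p = 0.0114), and the call was lost without saline replicate 1 (1.42, adjusted p = 0.0839) or cocaine replicate 1 (1.45, adjusted p = 0.086). The sixth, Hist4h4, was not called, at 0.211 to 0.825 against 0.132 to 0.290 CPM (1.22, adjusted p = 0.0769).

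The linker histones split. Hist1h1a (H1.1; chromosome 13, 23763666 to 23764406, plus strand) stood at 2.37, 5.37 and 2.50 CPM in saline, cocaine and yoked replicate 1, and at 0.755 to 1.96 CPM in the other 6 IP libraries. Hist1h1c (H1.2; chromosome 13, 23738808 to 23740367, plus strand) stood at 4.15, 5.90 and 3.61 CPM and at 0.966 to 3.17 CPM. Neither gene's groups overlapped, and the log2 differences were 1.32 (SE 0.27, edgeR adjusted p = 0.000778) and 1.28 (SE 0.27, edgeR adjusted p = 0.0011). Hist1h1e (H1.4; chromosome 13, 23620629 to 23622558, minus strand), the most abundant H1 message here by level per kilobase, did not pass. It stood at 11.7, 16 and 9.80 CPM in number 1 and at 8.06 to 13.1 CPM in the others, which overlap, with a difference of 0.32 (SE 0.16, edgeR adjusted p = 0.0958). The call appeared when yoked replicate 2 was left out (0.44, adjusted p = 0.0249). Hist1h1c and Hist1h1e carry the same 16-base stem-loop shown above.

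H2B genes went different ways. Hist2h2be (chromosome 3, 96221119 to 96223738, plus strand) was the only histone gene called lower. It stood at 8.74, 5.97 and 7.09 CPM in saline, cocaine and yoked replicate 1, at 9.92 to 12 CPM in the 6 others, while input RNA had 10.3 CPM and unbound RNA 19.9 CPM. All libraries numbered 1 were below all others, and the log2 difference was -0.58 (SE 0.16, edgeR adjusted p = 0.00508), or -0.41 (adjusted p = 0.0362) without cocaine IP replicate 1. Hist3h2ba (chromosome 11, 58948920 to 58949533, plus strand) stood at 3.57, 7.57 and 2.79 CPM in number 1 and 2.28 to 2.97 CPM in the others. The yoked library fell inside the range of the others, and the difference of 0.78 (SE 0.24, edgeR adjusted p = 0.0131) was lost without cocaine replicate 1 (0.34, adjusted p = 0.266) and without cocaine replicate 2 (0.60, adjusted p = 0.055).

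The spliced H2B gene Hist1h2bc showed no shift between the numbers. It is annotated with 2 exons (chromosome 13, 23684199 to 23692908, plus strand), and it stood at 5.56, 7.70 and 5.32 CPM in saline, cocaine and yoked replicate 1 against 3.96 to 7.47 CPM in the others. The difference was -0.01 (SE 0.19, edgeR adjusted p = 0.964). Hist1h2be, also annotated with 2 exons (0.04, SE 0.29), and Hist2h2bb (0.01, SE 0.30) were close to 0 too, with wider errors. Hist1h2bg, with at most 27 counts in a library, was called at 1.37 (SE 0.55, edgeR adjusted p = 0.047), at 0.388 to 0.655 against 0.0875 to 0.261 CPM, and lost the call under most alternatives. This gene passed the filter only through the libraries numbered 1, so its call is no support for a direction. None of the 3 H2A and 2 H3 genes tested was called.

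**Figure D3:**
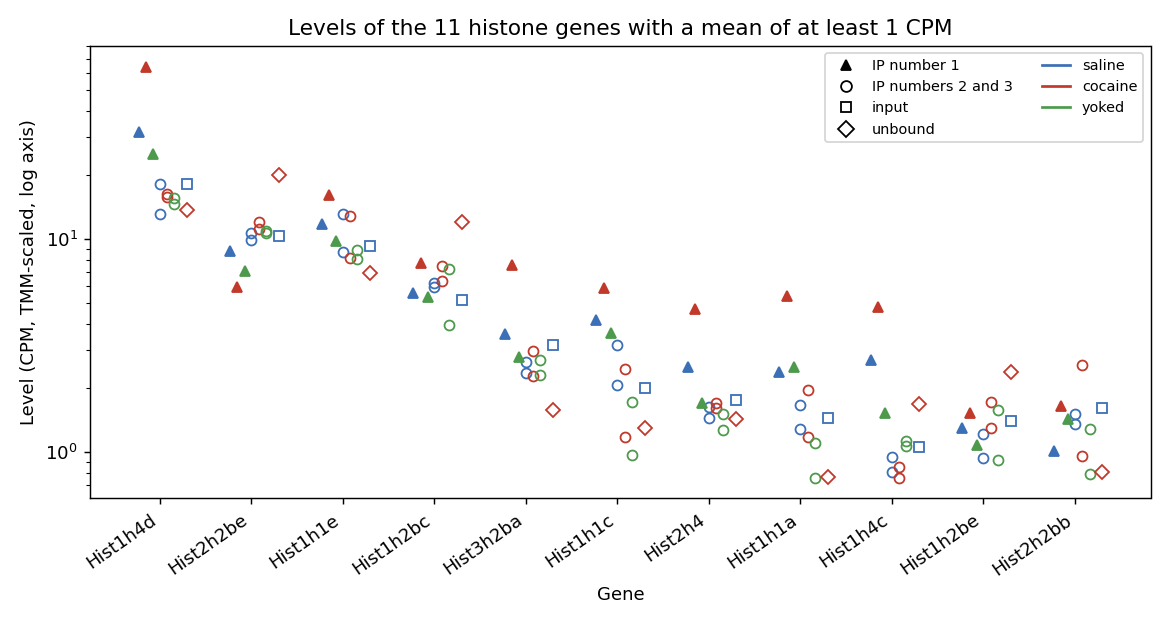
Levels of the 11 most abundant histone genes in each library (y axis, TMM-scaled CPM, log scale); filled triangles are IP libraries numbered 1, open circles numbers 2 and 3, squares the input, diamonds the unbound library, and colours the treatments. For Hist1h4d, Hist1h1c, Hist1h1a and Hist1h4c all triangles lie above all circles, and for Hist2h2be they lie below.

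**Figure D4:**
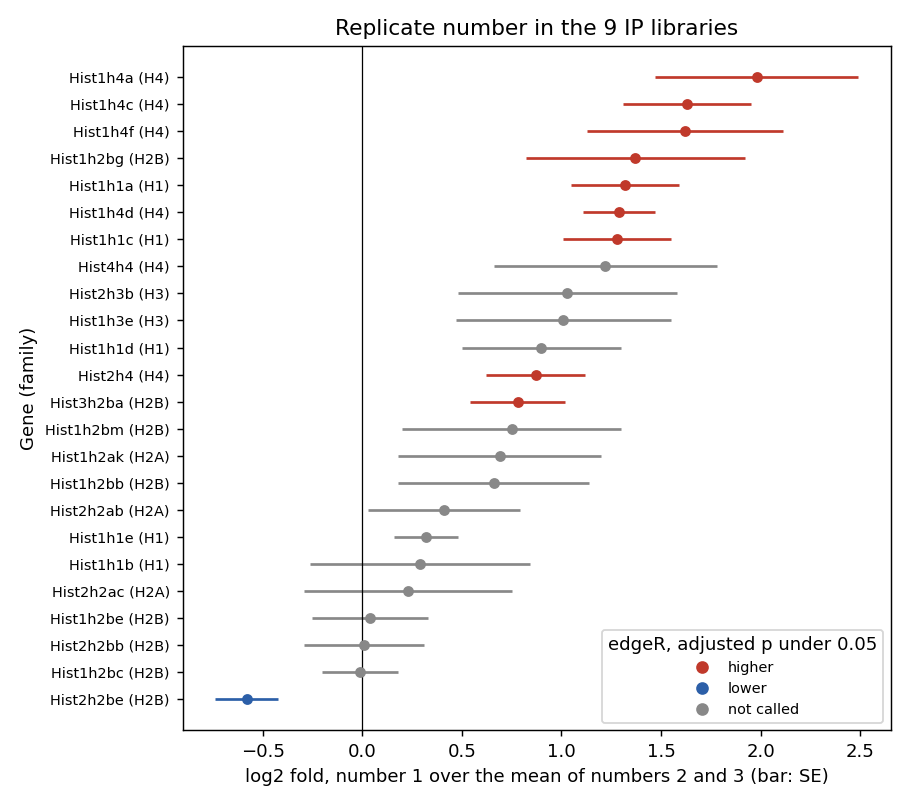
Points give the edgeR log2 fold of number 1 over the mean of numbers 2 and 3 for the 24 histone genes tested, with bars of 1 SE; red genes were called higher, blue lower, grey not called. Hist1h4a leads at 1.98, Hist1h4d stands at 1.29, and Hist2h2be at -0.58 is the only blue point.

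Leaving out cocaine IP replicate 1, the library with the highest histone sum, left 6 calls (5 higher and 1 lower). Hist1h4a, among the 5 higher, passed the filter only through the libraries numbered 1. The 4 that ended were Hist1h2bg, Hist1h4f, Hist2h4 and Hist3h2ba. With only the 17 genes that pass the filter within numbers 2 and 3, 7 were called (6 higher, 1 lower). In the main fit 27.6% of all genes tested were called higher and 27.7% lower. The shares of all genes under these alternatives are not given here, so neither count of calls is support for a direction. Counting groups that do not overlap, 8 histone genes were higher in number 1 and 1 lower, while 22.9% and 23.8% of all genes tested had such higher and lower groups. Of the 8, Hist1h2bg, Hist1h4a, Hist1h4f and Hist2h3b passed the filter only through the libraries numbered 1, so this count is no support for a direction. Between number 3 and number 2, edgeR called 0 of the 24 histone genes, where 0% of all genes were called, with 0 at an unadjusted p under 0.05; DESeq2 called 0 as well. The groups of 1 tested gene, Hist2h3b, did not overlap, higher in number 3 (4.9% of all genes), and none was lower (4.03%).

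Genes that work with histones also differed by number, by the same edgeR test. Of the 11 replacement histones, which are made outside S phase, 7 were higher in number 1 and 0 lower (median log2 difference 0.50, against 0.01 over all genes tested), where 27.6% of all genes were higher and 27.7% lower. H2afz, the H2A.Z variant, rose by 0.98 (SE 0.17, edgeR adjusted p = 0.000165), and H3f3a, which encodes H3.3, by 0.76 (SE 0.20, adjusted p = 0.00419), whereas the other H3.3 gene H3f3b was at 0.06 (adjusted p = 0.649) and the linker variant H1f0, the most abundant of the list, at 0.16 (adjusted p = 0.227). Of the 17 histone mRNA processing genes 7 were higher and 4 lower (median 0.14), against the same 27.6% and 27.7% of all genes. Higher were Slbp (0.46, edgeR adjusted p = 0.00348) and Cpsf3, the nuclease that cuts histone pre-mRNA (0.74, adjusted p = 2.88e-05). Lower were the U7 particle protein Lsm11 (-1.34, edgeR adjusted p = 5.12e-07), Casp8ap2, known as FLASH (-1.15, adjusted p = 3.15e-06), Npat, a coactivator of histone transcription (-0.54, adjusted p = 0.00114), and the exonuclease Eri1 (-0.35, adjusted p = 0.0131). Of 16 histone chaperones tested 6 were higher and 2 lower (median 0.07, beside 27.6% and 27.7% of all genes), with Ssrp1 of the FACT complex at 0.61 (edgeR adjusted p = 0.000122) and Hira at -0.47 (adjusted p = 0.00407).

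Genes of S phase and proliferation did not move as 1 block. Of 19 tested out of 22, 7 were higher in number 1 and 2 lower (median 0.29), where 27.6% of all genes were higher and 27.7% lower. Their summed level was 119.5 to 148.4 CPM in number 1 against 86.97 to 104.1 CPM in numbers 2 and 3. The sliding clamp Pcna rose by 0.95 (SE 0.13, edgeR adjusted p = 3.86e-05) and the replicative helicase subunit Mcm5 by 0.97 (SE 0.20, adjusted p = 0.000799). Mki67 and Top2a, both used as marks of dividing cells, were lower. Mki67 stood at 0.676 ± 0.23 CPM (SD, n = 3) in number 1 and 2.07 ± 0.369 CPM (n = 6) in the others, a difference of -1.64 (SE 0.32, edgeR adjusted p = 0.00056), and Top2a at -1.67 (SE 0.40, adjusted p = 0.00244).

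Markers of other cell types moved with the number too, in a comparison that called 27.6% of all genes higher and 27.7% lower. Of 7 markers of oligodendrocyte precursors, a cell type that divides in the adult brain, 6 were lower in number 1 and 1 higher, and they summed to 35.5 to 48.8 CPM in number 1 and 85.5 to 112.9 CPM in numbers 2 and 3. Lower were also 6 of 9 astrocyte markers (1 higher; sums 1029 to 1415 against 2301 to 2896 CPM), 7 of 9 oligodendrocyte markers (0 higher; 600.3 to 759.1 against 1405 to 1879 CPM) and 5 of 8 microglia markers (0 higher; 14.1 to 21.9 against 27.2 to 40.4 CPM). All 10 layer 5 markers were higher, and 5 of 9 endothelial and mural markers were higher and 2 lower (41.7 to 52.2 against 36.5 to 44.7 CPM). Of 8 nuclear noncoding RNAs 7 were lower and 0 higher (210.3 to 421.3 against 2410 to 7422 CPM). No marker of these lists was at 0 in all libraries. Their part in the histone differences was not tested, and in bulk RNA fewer cells of a type and less RNA per cell cannot be told apart.

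By treatment, no histone gene passed. This fit had no term for replicate number, so its standard errors and p-values take in the split between the numbers. In cocaine against saline edgeR called 0 of 24, where 0% of all genes were called, with 0 at an unadjusted p under 0.05 and 0 called by DESeq2. Yoked against saline gave the same counts: 0 called of 24 where 0% of all genes were called, 0 unadjusted and 0 by DESeq2. Cocaine against yoked gave 0 called, again where 0% of all genes were called, with 1 at an unadjusted p under 0.05, as 1.11% of all genes were, and 0 by DESeq2. That 1 gene was Hist1h2bm, an H2B gene with at most 29 counts in a library, at 0.429 ± 0.258 and 0.127 ± 0.0233 CPM (SD over 3 libraries each). Its groups did not overlap, and it had a log2 difference of 1.74 (SE 0.73) with an unadjusted edgeR p of 0.0412 and an adjusted p = 0.972.

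Hist1h4d averaged 32.3 ± 28.2 CPM in cocaine, 20.8 ± 9.48 in saline and 18.3 ± 5.95 in yoked IP libraries (SD, n = 3 each). The means differ less than the libraries within the cocaine group, and the log2 difference of cocaine over saline was 0.64 (SE 0.57, edgeR adjusted p = 1). Set number by number, on log2 of CPM plus 0.5, cocaine over saline was 1.04 in number 1, 0.24 in number 2 and -0.11 in number 3. Hist1h2bc and Hist1h2be were the histone genes among the 24 tested whose cocaine libraries all lay above the saline libraries, as did 3.04% of all genes; 0 lay below, as did 2.34%. Hist1h2bc averaged 7.21 ± 0.779 against 5.85 ± 0.305 CPM (0.30, SE 0.24, edgeR adjusted p = 1), and Hist1h2be 1.52 ± 0.199 against 1.14 ± 0.179 CPM (0.41, SE 0.32, edgeR adjusted p = 1). In yoked against saline the groups of 2 scarce H2A genes among the 24 did not overlap, Hist2h2ac higher (where 2.16% of all genes were) and Hist2h2ab lower (2.09%), and in cocaine against yoked those of Hist1h2bm, higher (3.01%), with none lower (2.57%).

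Hist1h1e and Hist2h2be, the H1 and H2B genes with most counts, had smaller standard errors than Hist1h4d, and neither was called. Hist1h1e averaged 12.4 ± 4.04 CPM in cocaine, 11 ± 2.10 in saline and 8.84 ± 0.974 in yoked libraries, a difference of 0.16 (SE 0.26) for cocaine over saline and 0.49 (SE 0.27) for cocaine over yoked. Hist2h2be averaged 9.76 ± 3.29, 9.69 ± 0.995 and 9.45 ± 2.04 CPM in the same order, with 0.01 (SE 0.29) for cocaine over saline. The median over the list moved with the libraries left in. The median log2 difference of cocaine over saline was 0.42 over the 24 genes (0.03 over all genes tested) and 0.11 without all libraries numbered 1. It was -0.13 without cocaine IP replicate 1 alone, which leaves the saline library numbered 1 in the comparison. For cocaine over yoked it was 0.51 (all genes 0.01), 0.21 without number 1 and -0.06 without cocaine IP replicate 1 alone, and for yoked over saline -0.11. Cocaine against saline and cocaine against yoked share their cocaine libraries. None of the replacement histone, processing, chaperone and S phase genes was called in any treatment comparison.

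For Hist1h4d the size of the number 1 effect was compared between treatments, in a test chosen after its values were seen. On log2 of CPM plus 0.5, number 1 exceeded the mean of numbers 2 and 3 by 1.01 in saline, 1.99 in cocaine and 0.74 in yoked libraries. The edgeR interaction gave a difference of 1.27 for cocaine minus yoked (SE 0.26, adjusted p = 0.0176), 1 call among 24 histone genes where 3.19% of all genes were called. For cocaine minus saline the difference was 1 (adjusted p = 0.0811), where 0.524% of all genes and none of the histone genes were called. Each arm of this test holds 1 library numbered 1, so the cocaine value rests on cocaine IP replicate 1 alone. The SE and p-values of this test thus hold no spread among libraries numbered 1. The 1 call is near the share of all genes and says nothing particular to the histone genes.

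Pull-down enrichment was read as the ratio of each IP library to the single library of the other fraction, TMM-scaled over the 4 libraries with a prior count of 2, for the 11 histone genes that reach a mean of 1 CPM. There is 1 input and 1 unbound library, so these ratios have no replicate of the denominator. In saline IP over input 0 of 11 genes differed by at least 2-fold in all 3 IP libraries, where 0.0742% of all genes were called higher and 0.0445% lower. An edgeR fit over all 11 libraries called 0 of 28 histone genes and 0 of all genes, with 0 histone genes at an unadjusted p under 0.05, as 0.587% of all genes were. In replicate 1 the ratio was above 0 for 8 of 11 genes (median 0.32), in replicate 2 for 3 (-0.10) and in replicate 3 for 4 (-0.07). Over all genes with a mean of 1 CPM, 54%, 48.7% and 51.4% were above 0 in the same order (medians 0.06, -0.01 and 0.01). Hist1h1c was above the input in all 3, at 1.03, 0.06 and 0.64 (mean 0.58 ± 0.49, SD). Hist1h1e had log2 ratios of 0.32, -0.08 and 0.47 in replicates 1, 2 and 3, Hist2h2be -0.24, 0.06 and -0.07, and Hist1h2bc 0.10, 0.20 and 0.24. Hist1h4d (0.82, -0.44 and 0.00) and Hist1h4c (1.32, -0.34 and -0.15) were above the input in replicate 1 alone.

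In cocaine IP over unbound 0 of 11 passed as well, where 0.399% of all genes were called higher and 2.21% lower, and the edgeR fit called 0 of 28 (10 of 18070 genes in all), with 3 at an unadjusted p under 0.05, as 10.3% of all genes were. The ratio was above 0 for 8, 6 and 7 of the 11 genes in replicates 1, 2 and 3. Of all genes with a mean of 1 CPM, 51.3%, 54.3% and 55.5% were above 0. Hist1h1a was above the unbound library in all 3 replicates, with log2 ratios of 2.66, 0.51 and 1.25 (mean 1.47 ± 1.09, SD). So were Hist3h2ba, with 2.16, 0.45 and 0.84 (1.15 ± 0.90), Hist1h1e (1.13, 0.16 and 0.84) and Hist2h2bb (0.91, 1.53 and 0.17). Hist2h4 (1.61, 0.09 and 0.19) and Hist1h4d were also above it in all 3. Hist2h2be was below it in all 3, at -1.80, -0.91 and -0.77 (-1.16 ± 0.56), as were Hist1h2bc, at -0.70, -0.98 and -0.73 (-0.80 ± 0.15), and Hist1h2be, at -0.69, -0.52 and -0.90 (-0.70 ± 0.19). Hist1h4d was at 2.17, 0.14 and 0.20, and Hist1h4c changed sign between the replicates, at 1.43, -1.15 and -0.98. Hist2h2be, Hist1h2bc and Hist1h2be had their highest level of all libraries in the unbound RNA, at 19.9, 12 and 2.38 CPM. The stem-loop letters were found in the window of Hist1h2be and of Hist3h2ba. They were not found in those of Hist2h2be, Hist1h2bc and Hist1h1a, the last with only 48 annotated bases to search. Whether the stem-loop bears on these ratios was not tested. The unbound library was also the shallowest, at 20926712 gene counts, and had the most Malat1; the part of either in these ratios was not tested.

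**Figure D5:**
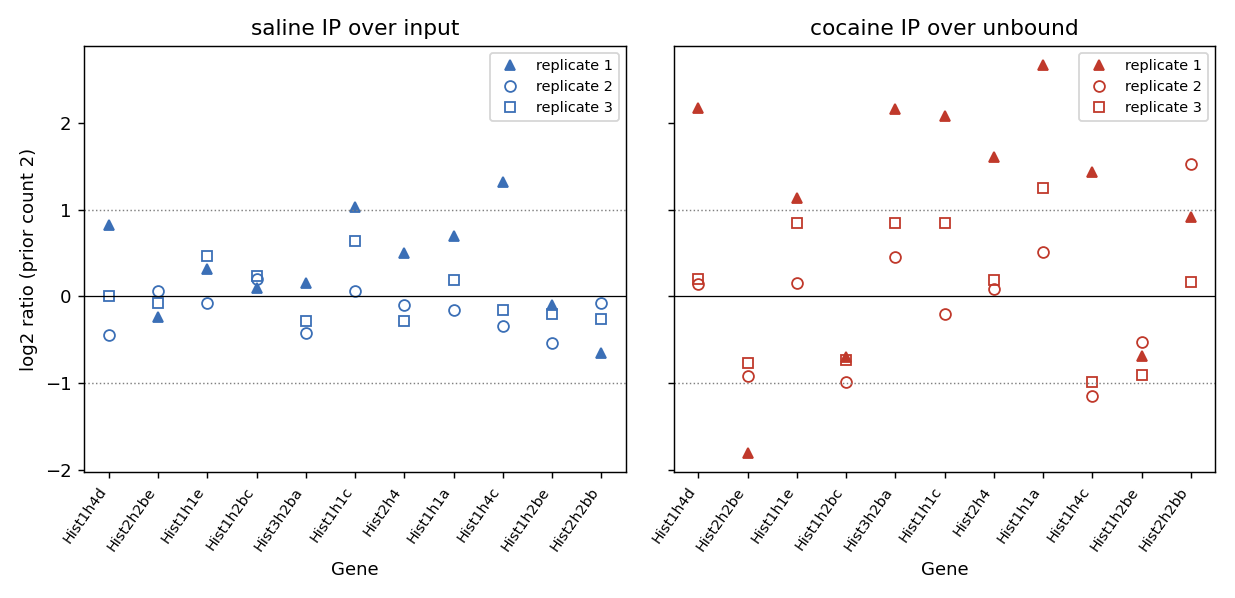
Log2 ratios of each IP library to the input (left, saline) and to the unbound library (right, cocaine) for the 11 most abundant histone genes; triangles, circles and squares are replicates 1, 2 and 3, and dotted lines mark a 2-fold difference. On the left Hist1h4c (1.32) and Hist1h1c (1.03) pass the 2-fold line in replicate 1 alone; on the right replicate 1 stands above the others for Hist1h4d (2.17) and below them for Hist2h2be (-1.80).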

How the data were processed

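RNA was measured by TRAP-seq in 11 libraries, with 1 count table each. The authors deposited whole-number read counts for each gene symbol. Per the submitters' processing notes, the authors aligned reads to mm10 with STAR 2.0.0e and counted them with HTSeq, and the sources used here do not give its version, annotation or strand setting. Of 32537 entries per file, 6 that name no gene were left out; reads aligned to several places made up 28.3% to 47.0% of all entries and reads over several genes 1.56% to 7.34%. Reads over several genes are therefore lost to each of them, also for antisense pairs if strand was ignored.

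The fits used edgeR 4.0.16 and limma 3.58.1 in R 4.3.3 (TMM, filterByExpr by group, robust glmQLFit, glmQLFTest, Benjamini-Hochberg over all genes tested, threshold 0.05), with DESeq2 1.42.0 as an alternative, and were tested on simulated data. Treatments were compared as 3 group means of the 9 IP libraries, replicate numbers with treatment as a term. CPM with TMM scaling describe levels. Intervals cover counting error only, since PCR copies cannot be told from separate molecules. Same-numbered libraries deviated together from their group means in all 9 pairs (correlations 0.38 to 0.79), and by that measure the numbers were taken to pair the samples; the shared index barcodes carry the same numbers. Unlike numbers correlated from -0.74 to 0.62, and 5 of 9 libraries matched their own number best. The stem-loop, positions and shared 50-base stretches come from GENCODE release M21. Alternatives were RLE scaling, DESeq2, no filter on low counts, leaving out Rn45s, the replicate block, leaving out each replicate and, chosen after seeing the data, a filter passed within numbers 2 and 3, and the interaction of treatment with number 1.

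Histone genes whose mean reached 1 CPM, or called in a comparison, were named; from other lists, genes that were called or were most abundant. The members and lists were chosen with earlier results of these data known.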

Additional observations from a re-analysis of the deposited data

Results flagged for a closer look

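In a test chosen after the values were seen, the number 1 effect on Hist1h4d was larger in the cocaine than in the yoked libraries. The edgeR interaction gave a log2 difference of 1.27 (SE 0.26), and 1 for cocaine minus saline. The adjusted p-values and the shares of all genes called stand with the main results. Hist1h4d stood at 64.4 CPM in cocaine and 25 CPM in yoked IP replicate 1, and at 15.7 and 16.2 against 14.5 and 15.6 CPM in replicates 2 and 3. The number 1 effect was positive in 3 of 3 treatments. With 1 library numbered 1 per treatment, the difference rests on cocaine IP replicate 1, and treatment and that library cannot be told apart. The SE holds no spread among libraries numbered 1. Cocaine IP replicate 1 also had the largest share of reads aligned to several places (47.0%), whose part was not tested.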

How the results depend on the processing

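In number 1 against numbers 2 and 3, 10 histone genes were called, and 6 to 11 when 1 replicate was left out; the lowest count, 6, was without cocaine IP replicate 1. DESeq2, RLE scaling and no filter on low counts gave 9 calls each, leaving out Rn45s gave 10. The main fit called 55.3% of all genes tested, and the shares of all genes under the alternatives are not given here. Over all alternatives of single genes in this comparison, 190 kept their direction and side of the threshold, 16 lost the call and 1 gained it; 0 reversed. Hist1h2bg accounts for most losses. Without a filter on low counts, 3 histone genes differed by at least 2-fold from the input in all 3 saline IP libraries. From the unbound library 1 differed so, and without cocaine IP replicate 2 also 1, Hist1h1a. These rest on few counts or on 2 libraries. The shares of all genes under these settings are not given here, so these counts say nothing particular to histone genes. In the 3 treatment comparisons and number 3 against number 2, all 165 values of single genes in each kept their direction and side of the threshold or stayed uncalled. With the replicate block, 0 histone genes were called in cocaine against saline, yoked against saline or cocaine against yoked, and it changed no call. The shares of all genes called with the block are not given here. The summed level of number 1 over that of the others was 1.66, 1.59 by total counts and 1.62 without Rn45s. Of the 63 histone genes, 24 passed the filter on low counts; the others were tested, if at all, only without it.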
